A study of Mus musculus with 12 samples.

Results

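The genes of the NF-kB subunits and of the proteins that hold them in check were followed across 12 arrays of microglia, the macrophages that live in brain tissue, grown from mice as primary cells. The members were a list of 10 gene symbols: the subunit genes Nfkb1, Nfkb2, Rel, Rela and Relb, the inhibitor genes Nfkbia, Nfkbib, Nfkbie and Nfkbiz, and Tnfaip3. A probe set that carried only that symbol was found for 9 of the 10, and each of these 9 had 1 such probe set. All 9 passed the filter on dim genes and are part of the 15273 genes tested, out of 19938 named genes on the array. Nfkb1 had no probe set with this single symbol in the annotation used here and was not analysed.

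There were 4 groups of 3 arrays, and the titles number the arrays of a group from 1 to 3. Wild-type microglia and microglia from mice labelled as Tlr4 knockout were kept for 24 h either without normal oxygen and glucose (ischemia; the series key calls it hypoxia) or under normal conditions (control), and 24 h of reperfusion under normal conditions followed in every group. All values therefore describe cells after recovery, and no group was sampled during the exposure. The groups were read from the titles, because the source name of the wild-type ischemia arrays names control conditions. The labels do not describe the alteration of Tlr4, the strain or the age of the mice, or whether the arrays stand for separate cultures or animals. The p-values therefore speak of the spread among these arrays, part or all of which may be technical.

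NF-kB is a family of transcription factors that work as pairs of subunits. In a resting cell, inhibitor proteins of the IkB family hold the pairs in the cytoplasm. Signals from Tlr4, the receptor for bacterial lipopolysaccharide, and from cytokine receptors activate a kinase that marks the inhibitors for destruction, and the freed pairs enter the nucleus and turn on inflammatory genes. Several genes of inhibitors and subunits are themselves targets, so that their RNA is often read as a trace of recent NF-kB activity. The arrays measured RNA only, and neither the location nor the activity of the proteins was measured.

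The upstream sequences of the members that lay apart between the genotypes after ischemia are shown because some of these genes are textbook targets of the factor they belong to or restrain. The RefSeq promoter table (GRCm38.p6) held 7 of the 10 members, and Relb, Nfkbiz and Nfkb1 had no entry. The 250 bases before the annotated start were searched on both strands for the 10-base kappaB consensus. A match was found in 5 of the 7 members (71.4%), against 2225 of all 27025 genes in the table (8.23%). The windows lie at chr12:55492648-55492897 (minus strand) for Nfkbia, chr17:45555450-45555699 (plus strand) for Nfkbie, chr19:46304487-46304736 (plus strand) for the first of 3 starts of Nfkb2, and chr10:19015411-19015660 (minus strand) for the first of 2 starts of Tnfaip3. Each is written 5′ to 3′ on the strand of its gene, and capitals mark the bases covered by a match.
Nfkbia: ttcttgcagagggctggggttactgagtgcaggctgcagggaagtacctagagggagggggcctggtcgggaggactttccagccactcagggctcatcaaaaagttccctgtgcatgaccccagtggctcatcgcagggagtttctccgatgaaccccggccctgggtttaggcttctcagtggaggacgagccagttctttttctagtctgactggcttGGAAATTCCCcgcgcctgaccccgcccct
Nfkbie: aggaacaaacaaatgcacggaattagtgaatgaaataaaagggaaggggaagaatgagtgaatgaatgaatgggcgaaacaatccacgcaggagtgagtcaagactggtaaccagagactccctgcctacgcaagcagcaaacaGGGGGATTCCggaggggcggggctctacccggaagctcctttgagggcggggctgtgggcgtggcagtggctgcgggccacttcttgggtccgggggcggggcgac
Nfkb2: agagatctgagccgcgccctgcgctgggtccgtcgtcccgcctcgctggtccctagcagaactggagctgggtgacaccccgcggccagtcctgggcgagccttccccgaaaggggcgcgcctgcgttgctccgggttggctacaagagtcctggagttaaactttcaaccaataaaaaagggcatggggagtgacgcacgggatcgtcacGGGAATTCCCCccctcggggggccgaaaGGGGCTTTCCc
Tnfaip3: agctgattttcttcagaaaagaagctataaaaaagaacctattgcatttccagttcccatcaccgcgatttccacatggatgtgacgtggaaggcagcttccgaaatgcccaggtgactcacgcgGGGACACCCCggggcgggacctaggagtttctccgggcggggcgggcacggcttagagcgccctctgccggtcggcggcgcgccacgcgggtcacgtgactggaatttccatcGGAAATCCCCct
The match of Nfkbia, GGAAATTCCC, lies 29 to 20 bases before its start. The printed window of Nfkb2 holds 3 matches, of which those at 39 to 30 and 38 to 29 bases overlap by all but 1 base each, and the windows of its other starts hold 1 each, GGAATGTCCC and GGGACTTTCC. The printed window of Tnfaip3 holds 2. Rel, whose window is not printed, has 2 overlapping matches, GGGAAATCCC and GGAAATCCCC. No match was found in the windows of Rela and Nfkbib, which says only that these letters are absent from those windows. A match is a description of the sequence and not a bound site.

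Arrays of a group correlated at 0.976 or more over all 35557 probe sets. Knockout-labelled control array 3 stood apart, with a median correlation of 0.976 to the other arrays, against 0.982 or more for the rest. Of 11 microglial markers measured, 10 were above the filter of 5.36 log2, and Gpr34 (4.84) was below it. The brightest of them, Csf1r and Trem2, were brighter than 99.2% and 96.2% of probe sets. P2ry12 and Tmem119, markers of resting microglia in the brain, were at 5.75 and 6.51 log2, and Siglech was at 5.85. Myocyte markers, measured because the extraction protocol names myocytes, had list means of 5.85 to 6.12 in the 12 arrays, and 7 of 8 were above the filter. The filter lies at only the 30th percentile over probe sets. Also above it were 7 of 7 oligodendrocyte lineage, 6 of 8 astrocyte, 5 of 8 fibroblast and mural, 5 of 7 neutrophil and lymphocyte, 4 of 8 neuron and 3 of 6 endothelial markers. The 2 wild-type arrays numbered 2 had the highest means of 11 monocyte and border macrophage markers, at 7.60 in control cells and 7.42 after ischemia, where the remaining wild-type arrays had 6.80 to 7.08 and the knockout-labelled arrays 6.94 to 7.14. The same 2 arrays were the highest for 11 microglial markers, at 8.56 and 8.55, where the other arrays had 7.72 to 8.06. Of the 11 monocyte and border macrophage markers 8 were above the filter, with Ccr2 (4.83), Cd163 (5.01) and Cd209f (3.79) below it. The brightest of that list were Mrc1 (11.17), Stab1 (10.70) and Ms4a7 (9.81), and Mrc1 was brighter than 97.0% of probe sets. Wild-type control array 1 had the highest means of the 12 arrays for oligodendrocyte lineage (7.17, others 6.43 to 6.83), fibroblast and mural (6.32, others 5.67 to 6.08), neuron (5.76, others 5.34 to 5.64) and astrocyte markers (6.22, others 5.91 to 6.14). Tlr4 itself did not check the labels. Its probe set read 8.71 ± 0.22 (SD, n = 6) in knockout-labelled and 8.74 ± 0.18 (SD, n = 6) in wild-type arrays (two-sided exact permutation test, p = 0.851), and whether it lies in the altered part of the gene is unknown, so the arrays are called knockout-labelled throughout and every genotype direction rests on the labels.

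The clearest genotype difference among the members was in Nfkbia, after ischemia. Nfkbia encodes IkB alpha, the inhibitor that is degraded and remade first when the pathway is switched on. Its log2 signal was 9.55, 9.79 and 9.93 in the wild-type ischemia arrays and 8.95, 9.08 and 8.97 in the knockout-labelled ischemia arrays. In control cells it was 9.73, 9.53 and 9.75 in wild-type arrays and 9.21, 9.34 and 8.93 in knockout-labelled arrays. All 6 knockout-labelled arrays lay below all 6 wild-type arrays. After ischemia the signal was 1.69-fold lower in the knockout-labelled arrays (log2 difference -0.76, SE 0.13, limma adjusted p = 0.0179), and this was the only member of the 9 called in any of the 5 comparisons. In that comparison limma called 0.714% of all genes, and 0.648% of all genes lower. In control cells the difference was -0.51 (SE 0.13) and did not pass (limma adjusted p = 0.416).

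The Nfkbia call after ischemia rested on most of the arrays. It kept its side of the threshold without wild-type ischemia array 1 (limma adjusted p = 0.0223) and lost it without any other single array of the comparison (limma adjusted p = 0.0536 and 0.0604 without wild-type ischemia arrays 2 and 3, and 0.122, 0.0573 and 0.0860 without knockout-labelled ischemia arrays 1, 2 and 3). The difference itself stayed between -0.86 and -0.67. With the mean of each same-numbered pair of arrays as 1 value, the difference over both conditions was -0.64 (SE 0.098, limma adjusted p = 0.125). That comparison called 0 of 9 members and 0.0982% of all genes. With 1 pair left out, Nfkbia passed only without wild-type pair 2 (limma adjusted p = 0.0356). Without another pair the limma adjusted p rose to as much as 0.481.

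Nfkbie and Relb were arranged like Nfkbia and stayed above the threshold. Nfkbie encodes IkB epsilon, a further cytoplasmic inhibitor, and its signal was 7.94, 7.91 and 8.14 in wild-type ischemia arrays against 7.32, 7.41 and 7.23 in knockout-labelled ischemia arrays. The difference was -0.68 (SE 0.14, limma adjusted p = 0.0604), and the groups did not overlap. In control cells knockout-labelled array 2, at 7.82, lay above 2 of the wild-type arrays, which read 7.94, 7.55 and 7.79, and the difference was -0.27 (SE 0.14, limma adjusted p = 0.705). The Nfkbie difference after ischemia passed the threshold with median centring of the arrays, with only the 2 groups in the fit and without both wild-type arrays numbered 2 (limma adjusted p = 0.0328, 0.0331 and 0.0330). The last of these alternatives was chosen after seeing the data. With any single array of the comparison left out, Nfkbie did not pass (limma adjusted p from 0.0929 to 0.246). Relb, the subunit of the noncanonical branch, read 8.55, 8.54 and 8.76 in wild-type ischemia arrays and 8.25, 8.21 and 8.14 in knockout-labelled ischemia arrays. Its difference was -0.42 (SE 0.099, limma adjusted p = 0.0938) after ischemia and -0.21 (SE 0.099, limma adjusted p = 0.705) in control cells, where the wild-type arrays read 8.61, 8.46 and 8.54 and the knockout-labelled arrays 8.19, 8.40 and 8.41. Relb and Nfkbia were the 2 members with all 6 knockout-labelled arrays below all 6 wild-type arrays, an arrangement shown by 1.09% of all genes tested.

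**Figure D1:**
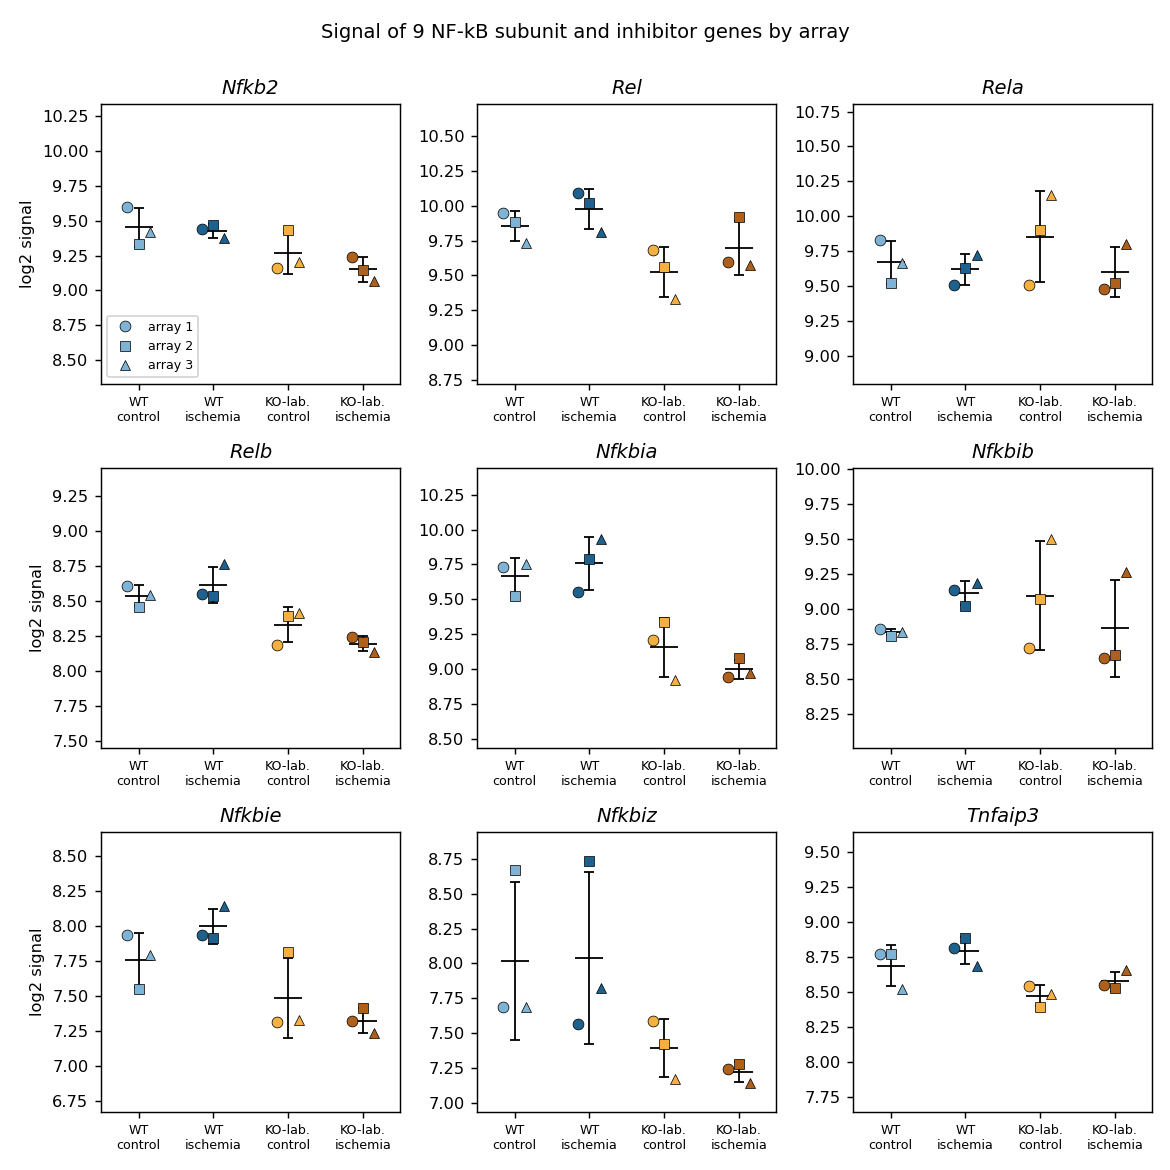
Log2 signal of the 9 measured members in each of the 12 arrays, by group; WT is wild type and KO-lab. is knockout-labelled, marker shapes give the array number, and horizontal lines with bars give the group mean and SD (n = 3). Every panel spans the same height on the log2 scale but has its own offset, since levels of different probe sets are not comparable. All 6 knockout-labelled arrays lie below all 6 wild-type arrays for Nfkbia and Relb, and the wild-type arrays numbered 2 stand apart for Nfkbiz.

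Nfkbiz had the widest range of group means and the widest spread. It encodes IkB zeta, a nuclear member of the inhibitor family that cooperates with NF-kB at a subset of inflammatory genes. The wild-type control arrays read 7.69, 8.67 and 7.69, the wild-type ischemia arrays 7.56, 8.74 and 7.83, the knockout-labelled control arrays 7.59, 7.42 and 7.17, and the knockout-labelled ischemia arrays 7.24, 7.28 and 7.14. The wild-type arrays numbered 2 stood about 1 log2 unit above the others of their groups. They were also the arrays with the highest means of both the microglial and the monocyte and border macrophage markers. The part of these markers in the result was not tested. The genotype difference was -0.62 (SE 0.29, limma adjusted p = 0.703) in control cells and -0.82 (SE 0.29, limma adjusted p = 0.398) after ischemia. Without both wild-type arrays numbered 2 it was -0.30 in control cells (limma adjusted p = 0.470) and -0.47 after ischemia (limma adjusted p = 0.135). In neither condition did the groups overlap.

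Among the remaining subunits, Nfkb2 and Rel had lower means in the knockout-labelled arrays without passing the test. Nfkb2 encodes p100, which is both an inhibitor and the precursor of the p52 subunit. It read 9.44, 9.47 and 9.37 in wild-type ischemia arrays against 9.24, 9.14 and 9.07 in knockout-labelled ischemia arrays, with a difference of -0.28 (SE 0.10, limma adjusted p = 0.454). In control cells its groups overlapped through knockout-labelled array 2, at 9.43, and the difference was -0.19 (SE 0.10, limma adjusted p = 0.705). Its highest value, 9.60, came from wild-type control array 1, the array with the highest oligodendrocyte, fibroblast, neuron and astrocyte marker means, and without that array the control-cell difference was -0.11; the part of these markers was not tested. Rel encodes c-Rel, a subunit found mainly in blood and immune cells. It read 9.95, 9.88 and 9.74 in wild-type control arrays and 9.68, 9.56 and 9.33 in knockout-labelled control arrays, and these groups did not overlap (difference -0.33, SE 0.13, limma adjusted p = 0.658). After ischemia the difference was -0.28 (SE 0.13, limma adjusted p = 0.600), and knockout-labelled array 2, at 9.92, lay within the wild-type range of 9.81 to 10.09.

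Tnfaip3 encodes A20, a ubiquitin-editing enzyme that switches the pathway off. It read 8.77, 8.77 and 8.52 in wild-type control, 8.82, 8.88 and 8.69 in wild-type ischemia, 8.54, 8.39 and 8.49 in knockout-labelled control and 8.55, 8.53 and 8.65 in knockout-labelled ischemia arrays. The genotype difference was -0.22 in both conditions (SE 0.099 each), with a limma adjusted p = 0.696 in control cells and 0.582 after ischemia. The groups lay apart after ischemia and overlapped in control cells through wild-type array 3.

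Rela and Nfkbib did not share this arrangement. Rela encodes p65, the main activating subunit, and Nfkbib encodes IkB beta, an inhibitor that is degraded more slowly. Rela read 9.83, 9.52 and 9.66 in wild-type control, 9.51, 9.63 and 9.72 in wild-type ischemia, 9.51, 9.91 and 10.15 in knockout-labelled control and 9.48, 9.52 and 9.80 in knockout-labelled ischemia arrays. Its genotype difference was 0.18 (SE 0.15, limma adjusted p = 0.773) in control cells and -0.019 (SE 0.15, 95% interval -0.35 to 0.32, limma adjusted p = 0.993) after ischemia. Nfkbib differed by 0.26 (SE 0.19, limma adjusted p = 0.742) in control cells and by -0.25 (SE 0.19, limma adjusted p = 0.808) after ischemia. The highest values of both genes came from knockout-labelled control array 3, the array that stood apart from the rest. Without it the control-cell differences were 0.036 for Rela and 0.060 for Nfkbib.

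**Figure D2:**
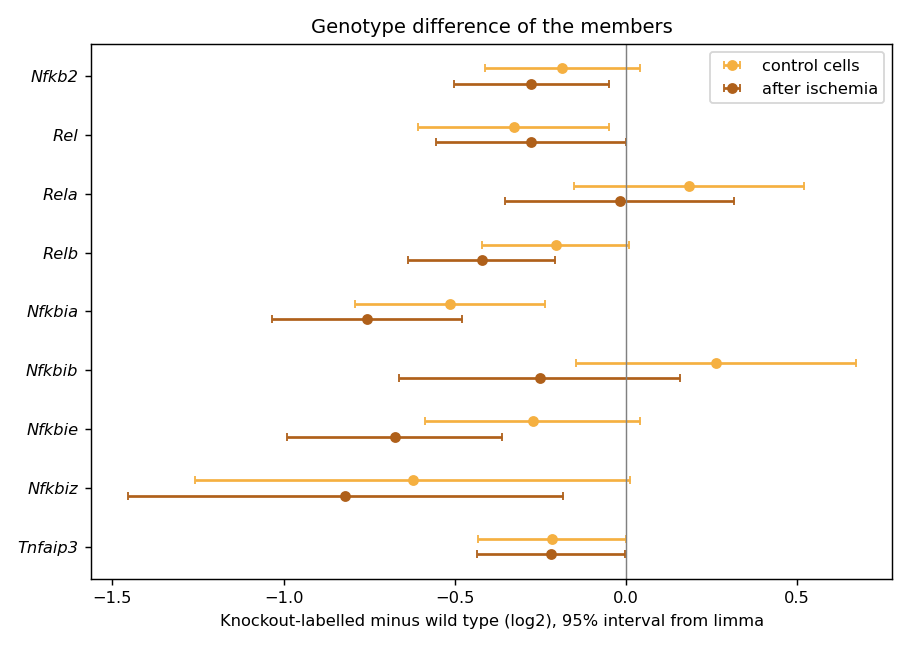
Log2 difference of knockout-labelled minus wild-type arrays for the 9 members, in control cells and after ischemia; points are the differences of group means (3 arrays against 3) and bars the 95% intervals from limma. The intervals of Nfkbia and Tnfaip3 lie below 0 in both conditions, and those of Rela and Nfkbib include 0 in both. For Tnfaip3 the upper ends are close to 0 (-8.95e-06 in control cells and -0.0046 after ischemia). The intervals are not adjusted over genes, and only Nfkbia after ischemia passed the adjusted test.

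Counted over the members, all 9 had a difference below 0 after ischemia (8 with quantile normalization, where Rela was above 0), as did 47.3% of all genes tested, and 7 of 9 in control cells, against 49.2%. The median difference was -0.28 after ischemia and -0.22 in control cells, beside medians of 0.010 and 0.0030 over all genes. The groups did not overlap for 6 members after ischemia (Nfkb2, Relb, Nfkbia, Nfkbie, Nfkbiz and Tnfaip3), each lower, against 8.07% of all genes in that direction, and for 4 in control cells (Rel, Relb, Nfkbia and Nfkbiz), each lower, against 4.52%. After ischemia 6 of the 9 had an unadjusted p under 0.05, each lower, against 4.56% of all genes lower and 8.35% in either direction. In control cells limma called 0 of the 9 members and 0.0589% of all genes. There 3 members had an unadjusted p under 0.05, each lower, against 3.65% of all genes lower and 7.14% in either direction. The 2 conditions use different arrays, but arrays of 1 genotype with the same number shared deviations from their group means, so the counts are not independent.

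No member passed the threshold for the exposure in either genotype. The 2 ischemia comparisons share their arrays with the genotype comparisons above. In wild-type arrays 7 of 9 members were above 0, against 52.4% of all genes, and 2 below, with a median of 0.087 beside 0.012 over all genes. With quantile normalization 4 were above 0 and 5 below, as Relb, Nfkbia and Nfkbiz changed sign, and with median centring 9 were above 0. Limma called 0 members without and 0 with a block for same-numbered arrays of a genotype, against 0.0131% and 3.73% of all genes. Without the block 0 of the 9 had an unadjusted p under 0.05, against 14.7% of all genes. With it 2 of the 9 had one (Nfkbib and Nfkbie), against 3681 of all 15273 genes. In knockout-labelled arrays 2 were above 0 and 7 below, against 50.2% of all genes below 0, with a median of -0.16 beside -0.00092 over all genes. There limma again called 0 members without and 0 with the block, against 0% and 0.648% of all genes. Without the block 0 members had an unadjusted p under 0.05, against 8.73% of all genes, and 0 had groups that did not overlap, against 14.3%. With the block 2 members had an unadjusted p under 0.05 (Rela and Nfkbib), against 2934 of all 15273 genes. Both comparisons were also read in same-numbered pairs, as control to ischemia within a genotype.

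Of the 9 members, Nfkbib had the largest mean change in the wild type. It read 8.85, 8.81 and 8.84 in wild-type control arrays and 9.14, 9.02 and 9.18 after ischemia, so the groups did not overlap, as for 9.38% of all genes in that direction. The pairs changed by 0.28, 0.21 and 0.34, with a mean of 0.28 (SE 0.19, limma adjusted p = 0.481; 0.113 with the block). In knockout-labelled arrays Nfkbib read 8.72, 9.07 and 9.50 before and 8.65, 8.67 and 9.26 after ischemia. These pairs changed by -0.069, -0.40 and -0.24, with a mean of -0.24 (SE 0.19, limma adjusted p = 0.681; 0.210 with the block). Without knockout-labelled control array 3 the mean change was -0.034.

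Nfkbie changed by 0.0023, 0.36 and 0.35 in the wild-type pairs (mean 0.24, SE 0.14, limma adjusted p = 0.439; 0.206 with the block) and by 0.0071, -0.40 and -0.095 in the knockout-labelled pairs (mean -0.16, SE 0.14, limma adjusted p = 0.707). Nfkbia changed by -0.18, 0.26 and 0.18 in the wild-type pairs and by -0.26, -0.26 and 0.047 in the knockout-labelled pairs, so pair 1 lay on the other side of 0 from pairs 2 and 3 in the wild type. Tnfaip3 was higher after ischemia in every pair of both genotypes, by 0.041, 0.11 and 0.17 in the wild type and by 0.0055, 0.14 and 0.17 in knockout-labelled arrays. Its mean change was 0.11 (SE 0.099, limma adjusted p = 0.611) and 0.10 (SE 0.099, limma adjusted p = 0.727). Both 95% intervals, -0.11 to 0.32 in each genotype, include 0.

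Rel changed by 0.14, 0.14 and 0.078 in the wild-type pairs and by -0.086, 0.36 and 0.24 in the knockout-labelled pairs. Rela changed by -0.32, 0.11 and 0.058 in the wild-type pairs and by -0.030, -0.38 and -0.35 in the knockout-labelled pairs. The means for Nfkb2 and Relb were -0.023 and 0.079 in the wild type and -0.11 and -0.14 in knockout-labelled arrays, and for Nfkbiz 0.025 and -0.17. In Nfkbiz the 2 wild-type arrays numbered 2 stood high in both conditions, and their pair changed by 0.065. In all, 4 members were higher after ischemia in all 3 wild-type pairs (Rel, Nfkbib, Nfkbie and Tnfaip3), against 25.8% of all genes, and 0 were lower in all 3, against 22.9%. In knockout-labelled pairs 3 were lower in all 3 (Rela, Nfkbib and Nfkbiz), against 18.7% of all genes, and 1 was higher in all 3 (Tnfaip3), against 20.8%. With 9 members these shares were not tested.

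**Figure D3:**
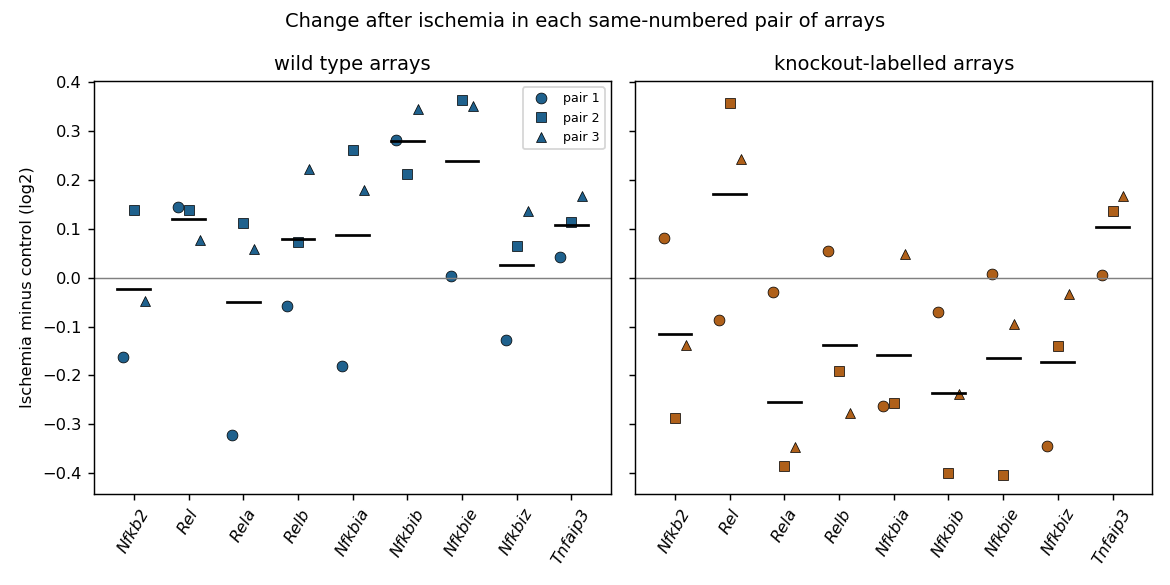
Change of log2 signal from control to ischemia in each same-numbered pair of arrays, for wild-type arrays on the left and knockout-labelled arrays on the right; marker shapes give the pair number and black lines the mean of 3 pairs. The 3 wild-type pairs of Nfkbib lie between 0.21 and 0.34 and its knockout-labelled pairs between -0.40 and -0.069.

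The difference between the ischemia effects of the genotypes was tested for every member, and none passed. The difference was below 0 for 8 of 9 members (7 with quantile normalization, where Tnfaip3 was above 0), against 48.4% of all genes, and ranged from -0.51 for Nfkbib to 0.052 for Rel. For Nfkbib it had an SE of 0.27 and a limma adjusted p = 1.00; with the replicate block within genotype the SE was 0.14 and the limma adjusted p = 0.246. For Nfkbie it was -0.40 (SE 0.20, limma adjusted p = 1.00; 0.533 with the block). For Nfkbia it was -0.24 (SE 0.18, limma adjusted p = 1.00), with a 95% interval of -0.64 to 0.15, so a larger genotype difference after ischemia than in control cells was not shown. Limma called 0 of the 9 members and 0% of all genes here without the block (0 members and 2.9% of all genes had an unadjusted p under 0.05), and 0 members and 0.308% of all genes with it. With the block 2 members (Nfkbib and Nfkbie) had an unadjusted p under 0.05, against 1291 of all 15273 genes. This comparison uses the same arrays as the comparisons above.

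The order of the group means was the same in Relb, Nfkbia, Nfkbie and Nfkbiz: wild-type ischemia highest, then wild-type control, knockout-labelled control and knockout-labelled ischemia. With quantile normalization the wild-type control mean was above the wild-type ischemia mean in Relb, Nfkbia and Nfkbiz. In Nfkbia and Nfkbiz the wild-type change also crossed 0 when certain single arrays were left out. The step between wild-type control and knockout-labelled control separated the arrays of these 2 groups in Relb, Nfkbia and Nfkbiz, by mean gaps of 0.21, 0.51 and 0.62, and the other neighbouring groups overlapped. In Nfkbie every neighbouring pair of groups overlapped. Rel and Tnfaip3 had the 2 wild-type groups on top as well, but with ischemia above control in both genotypes.

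The genes whose signals followed Nfkbiz and Nfkbia most closely over the 12 arrays were picked by Pearson correlation, as a description. For Nfkbiz these were Clec4a1 (r = 0.969), a C-type lectin gene of myeloid cells, Smad3 (r = 0.957), a transducer of TGF-beta signals, and Adgre1 (r = 0.955), which encodes the macrophage marker F4/80. Clec4a1 read 10.23 and 10.39 in the wild-type arrays numbered 2, 7.20 to 8.47 in the other wild-type arrays and 5.97 to 7.04 in the knockout-labelled arrays. The wild-type arrays numbered 2 were thus the highest for Clec4a1 as for Nfkbiz. For Nfkbia they were Rassf4 (r = 0.980), Acod1 (r = 0.954), which makes the metabolite itaconate in activated macrophages, and Lox (r = 0.949), a matrix cross-linking enzyme. Acod1 had group means of 8.10 and 8.91 in wild-type control and ischemia arrays and 6.68 and 6.51 in the knockout-labelled ones. The 12 arrays share 2 genotypes, so any gene that differs between them correlates with Nfkbia.

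The genes upstream of the members were counted next. This list and the lists below were chosen with earlier results of these data known, so their counts are descriptions. Among 21 measured genes of the path from receptor to kinase, 15 were below 0 after ischemia, against 47.3% of all genes, with a median of -0.15, and limma called 0 of them. The nearest were Irak3, which encodes a brake on Toll-like receptor signalling (-0.53, SE 0.11, limma adjusted p = 0.0534), and Myd88, the shared adaptor of these receptors (-0.40, SE 0.090, limma adjusted p = 0.0719). In control cells they differed by -0.50 and -0.27 (limma adjusted p = 0.251 and 0.623), and 0 of the 21 were called. There 12 of the 21 were below 0, against 49.2% of all genes, with a median of -0.037. In the noncanonical branch, 0 of 6 were called in either condition. After ischemia 6 of the 6 were below 0 (median -0.13), against 47.3% of all genes. In control cells 3 were below 0 (median 0.031), against 49.2%. Birc3, which encodes an inhibitor of apoptosis that is also a target of the pathway, differed by -0.59 in control cells (SE 0.11, limma adjusted p = 0.140) and by -0.55 after ischemia (SE 0.11, limma adjusted p = 0.0519).

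Among 16 genes of further IkB proteins and ubiquitin editors, 2 were called lower in knockout-labelled arrays after ischemia, against 0.648% of all genes. In the same comparison 7 of the 16 were above 0 and 9 below, with a median of -0.079 beside 0.010 over all genes. Bcl3, a nuclear IkB protein, differed by -0.67 on the log2 scale (SE 0.12, limma adjusted p = 0.0231). Rnf31, which encodes the catalytic subunit of the linear ubiquitin ligase that feeds the pathway, differed by -0.66 (SE 0.099, limma adjusted p = 0.00847). Bcl3 lost its call without any single array of the comparison (limma adjusted p from 0.0576 to 0.133), and Rnf31 without knockout-labelled ischemia array 1 or 2 (limma adjusted p up to 0.0722). Rnf31 was also the 1 gene of this list that passed for ischemia in the wild type, with a change of 0.40 only under the replicate block (limma adjusted p = 0.0353 with the block, 0.255 without it). In control cells 0 of the 16 were called.

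The NF-kB target genes, a list of 42 of which 35 were tested, were read for the same differences. The list was chosen with earlier results of these data known, so its counts are a description and not independent support. After ischemia 24 of 35 were below 0 with a median of -0.39, against 47.3% of all genes and a median of 0.010. Limma called 6 lower and 0 higher, against 0.648% of all genes lower. These were Saa3, an acute-phase gene (-1.63, SE 0.22, limma adjusted p = 0.00547), Lcn2, which encodes the iron-binding protein lipocalin 2 (-1.53, SE 0.28, limma adjusted p = 0.0286), Cxcl16, a chemokine gene (-1.18), Ebi3, a cytokine subunit gene (-1.15), Slfn2 (-1.11) and the interferon-responsive factor gene Irf1 (-0.69). The rule for named genes gives Slfn2 and Irf1 for ischemia in the wild type and not for this comparison. The classic targets Tnf (-0.55) and Il1b (-1.47) did not pass (limma adjusted p = 0.155 and 0.178) and were named after their values were seen. The 11 targets above 0 included Ccl3 (0.12), Cxcl1 (0.11) and Ccl2 (0.077), also named after their values were seen. Il6, Csf2, Traf1 and Il10 were below the filter on dim genes and were not tested. The count was 1 to 5 when any single array of the comparison was left out, and 10 without both wild-type arrays numbered 2. In control cells 29 of 35 were below 0 with a median of -0.29, against 49.2% of all genes and a median of 0.0030. There 1 was called lower, against 0.0524% of all genes, and it was Saa3 (-1.48, SE 0.22, limma adjusted p = 0.0374). That call was lost without any 1 of 5 of the 6 arrays (limma adjusted p up to 0.255).

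Some targets responded to the exposure under the replicate block within genotype. In the wild type limma with the block called 4 of the 35 higher, against 2.99% of all genes: Clec4e, a receptor gene of macrophages (0.91), Irf1 (0.61), Saa3 (0.54) and Slfn2 (0.46), with limma adjusted p = 0.00964, 0.00504, 0.0478 and 0.0193. In knockout-labelled arrays it called 2 lower, against 0.111% of all genes: Cxcl16 (-0.58) and Marcksl1 (-0.56), with limma adjusted p = 0.0182 and 0.0370. It called 0 higher there. Clec4e, Irf1, Saa3 and Slfn2 changed by 0.77, 0.096, 0.39 and -0.054 in knockout-labelled arrays. Cxcl16 and Marcksl1 changed by 0.21 and 0.089 in the wild type. Without the block 0 of these 6 passed (limma adjusted p from 0.242 to 0.644). For Cxcl16 the difference of the ischemia effects also passed with the block (-0.78, limma adjusted p = 0.0246; 1.00 without it). The medians of the list were 0.089 in the wild type and -0.039 in knockout-labelled arrays, beside 0.012 and -0.00092 over all genes.

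**Figure D4:**
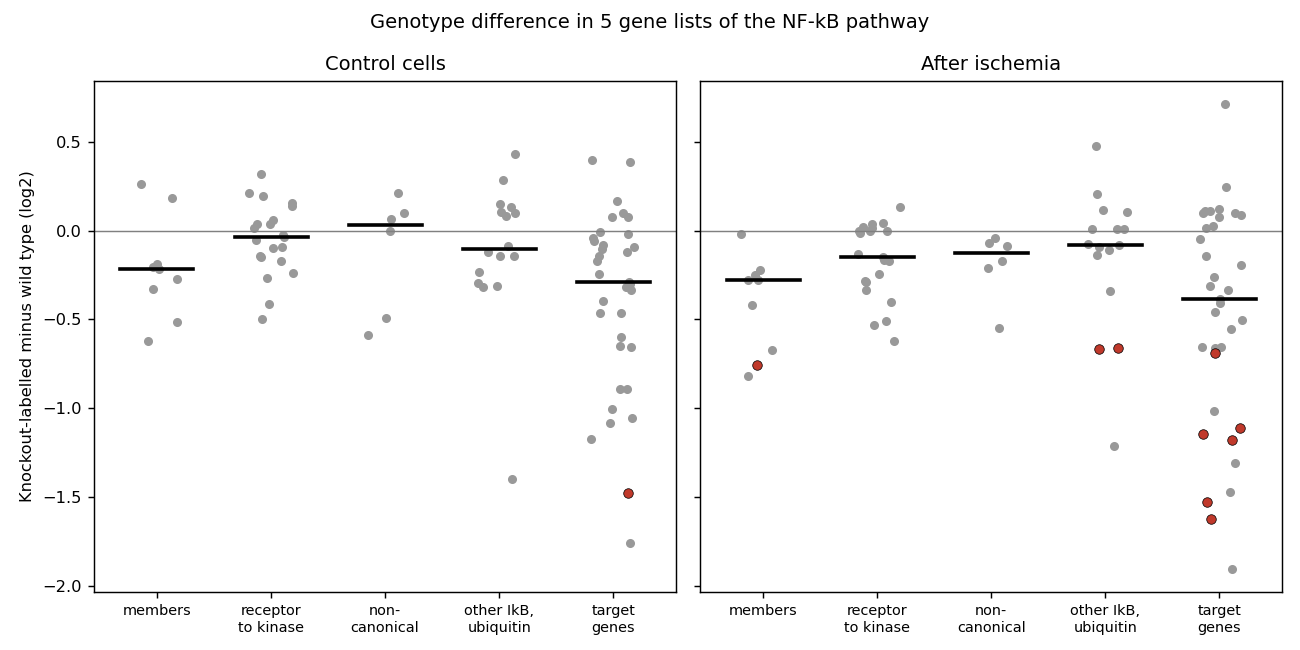
Log2 difference of knockout-labelled minus wild-type arrays for each tested gene of 5 lists, in control cells on the left and after ischemia on the right; the members are the 9 subunit and inhibitor genes, black lines are list medians and red points are genes called by limma at an adjusted p under 0.05. After ischemia the called genes are 1 of 9 members, 2 of 16 further IkB proteins and ubiquitin editors and 6 of 35 target genes. The lists were chosen with earlier results of these data known.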

How the data were processed

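The deposited table holds log2 signals of 35557 probe sets on 12 Affymetrix Mouse Gene 1.0 ST arrays, which the authors had passed through RMA; the submitters' processing notes name Affymetrix Expression Console 1.1 for this. The method corrects background, normalizes arrays by quantiles and summarises probes, so differences of overall RNA content cannot be seen. The sources used here give no genome build for the array.

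Of the probe sets, 21789 had 1 gene symbol, 1621 had several and 12147 were not named; symbols were updated through Entrez identifiers (21698 matched). The brightest probe set stood for a gene, and genes not brighter on average than 5.36 log2, the 30th percentile over probe sets, were dropped. The fit (limma 3.58.1, R 4.3.3, lmFit and eBayes) had 1 mean per group and used all 12 arrays. A gene was called when its p, adjusted over 15273 genes by Benjamini-Hochberg, was under 0.05. Differences are on the log2 scale, and a fold is 2 to that power.

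Deviations from group means were correlated to check whether numbers pair arrays. Correlations of same-numbered arrays were 0.478 to 0.735 for wild-type and 0.316 to 0.490 for knockout-labelled arrays (differently numbered: -0.619 to 0.399 and -0.439 to 0.219). The labels do not state a pairing; on this check a fit with a replicate block within genotype was run beside it where both conditions of a genotype were compared. Between genotypes the numbers did not pair arrays (-0.332 to 0.150 for the control groups and -0.154 to 0.326 for the ischemia groups).

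The members, lists and tests were chosen with earlier results of these data known. Named genes are the members, Tlr4, up to 4 genes a list and comparison (called genes by size, then the smallest p), and the 3 genes most correlated with each of the 2 members of widest range; the text gives a selection of these. The fitting script was tested on simulated data first.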

Additional observations from a re-analysis of the deposited data

Results flagged for a closer look

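Nfkbib was picked out because its same-numbered pairs moved in opposite directions in the 2 genotypes: all 3 wild-type pairs were higher after ischemia and all 3 knockout-labelled pairs were lower. Of all genes, 25.8% were higher in all 3 wild-type pairs and 18.7% were lower in all 3 knockout-labelled pairs. The share of genes with both was not counted. The difference of the ischemia effects was -0.51 on the log2 scale. The test of that difference did not pass over all genes (limma adjusted p = 1.00 without and 0.246 with the replicate block within genotype; unadjusted p = 0.0769 and 0.00231). Without knockout-labelled control array 3, which stood apart from the other arrays, it was -0.31, and without knockout-labelled ischemia array 3 it was -0.72. The test used the same values that picked Nfkbib out, so its p-values are not independent support.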

How the results depend on the processing

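Every result rests on the authors' background correction and summarisation, which were kept. The cause of the changes below was not tested. The Tlr4 difference was -0.024 with arrays and with pair means as values (two-sided exact permutation p = 0.851 and 0.900).

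For the genotype difference after ischemia 1 of 9 members was called. The count was 2 with median centring, 2 with only the compared groups in the fit and 2 without both wild-type arrays numbered 2 (an alternative chosen after seeing the data), the second gene being Nfkbie each time; leaving out 1 array gave 0 to 1. The pair-mean comparison of genotypes, also chosen after seeing the data, called 0 members, and 0 to 1 when a pair was left out. In the other 4 comparisons the count was 0 under every setting run. The members' median after ischemia was -0.28 and ran from -0.39 to -0.27 when an array was left out; for ischemia in knockout-labelled arrays it was -0.16 and ran from -0.17 to -0.068. Quantile normalization moved the wild-type ischemia median from 0.087 to -0.0058.

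Counts over all genes moved more. With the replicate block within genotype limma called 570 genes for wild-type ischemia in place of 2, 99 for knockout-labelled ischemia in place of 0 and 47 for the difference of the effects in place of 0; the block changed no member's call. With the replicate block over all arrays the counts were 1 for knockout-labelled ischemia, 31 for the genotype difference in control cells (9 without it) and 236 after ischemia (109 without it). With only the compared groups the counts were 1 for wild-type ischemia and 0 for genotype in control cells (1091 at an unadjusted p under 0.05 in the fit of all arrays), and quantile normalization gave 1 for wild-type ischemia. Without both wild-type arrays numbered 2 they were 80 for wild-type ischemia, 100 and 295 for genotype in control cells and after ischemia, and 1 for the difference of effects. Leaving out 1 array gave 1 to 79, 0 to 23, 25 to 95 and 0 to 1 for these 4 comparisons, and leaving out a pair gave 1 to 205 in the pair-mean comparison (15 with all pairs).

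Small changes crossed 0 under other settings, none past the threshold on either side. With median centring the wild-type ischemia changes of Nfkb2 and Rela were 0.037 and 0.0093. With quantile normalization those of Relb, Nfkbia and Nfkbiz were -0.028, -0.0058 and -0.058, the Rela genotype difference after ischemia was 0.033 and the Tnfaip3 difference of effects was 0.041. Without both wild-type arrays numbered 2 the wild-type change of Nfkbia was -9.5e-06. When 1 array was left out, wild-type ischemia changes ran from -0.083 to 0.052 for Nfkb2, -0.13 to 0.028 for Rela, -0.00070 to 0.19 for Nfkbia and -0.32 to 0.35 for Nfkbiz. The knockout-labelled change of Nfkbie ran from -0.25 to 0.0012, and the Rela genotype difference from -0.12 to 0.042 after ischemia and -0.042 to 0.20 over pair means, where Nfkbib ran from -0.20 to 0.15. Differences of effects ran from -0.060 to 0.13 for Rel, -0.52 to 0.15 for Nfkbiz and -0.058 to 0.079 for Tnfaip3.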
